A study of Mus musculus with 2 samples.

Results

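Subcluster 10 of neuron.1 is a group of brainstem neuron nuclei whose highest genes relative to the other neurons of the same libraries lay at a single genomic locus, that of *Gpc5*. Its members were chosen by the deposited labels alone, as the nuclei that carry the cluster name neuron.1 and the number 10 in the clustering at resolution 0.8. They were 611 nuclei, 298 from WT and 313 from HET, of 11511 neuron nuclei and 18281 nuclei in all. All 611 also carried the reference label of neurons. The brainstem of 1 WT and 1 HET mouse was profiled by droplet-based single-nucleus RNA sequencing, in which a unique molecular identifier (UMI) tags every RNA molecule, so that copies made by PCR are not counted again. Both mice were female, on a C57Bl6 background and at postnatal day 41. The HET mouse carried the A1783V missense knock-in on 1 *Scn1a* allele, obtained by crossing floxed *Scn1a* males with Sox2-Cre females, and WT animals were littermates. Sox2-Cre acts in the early embryo, so the mutant allele is present throughout the body. *Scn1a* encodes the sodium channel subunit NaV1.1, and its loss of function causes Dravet syndrome.

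Glypicans are heparan sulfate proteoglycans anchored to the cell surface by a lipid tail, where they bind growth factors, morphogens and synaptic adhesion partners. *Gpc5*, a member of the family, is also a familiar astrocyte transcript in the mouse brain. Neurons of the brainstem are usually told apart by their transmitter (glutamate, GABA, glycine, acetylcholine, monoamines), by neuropeptides and by the transcription factors of their lineage. The first comparison below therefore asks what set the subcluster apart from the other neurons, and the second how its HET nuclei differed from its WT nuclei. With 1 library per genotype, neither comparison could be tested. Expression is given as UMIs of a gene per 1000000 UMIs of the nuclei summed (CPM), differences as log2 ratios of CPM, and intervals are exact 95% intervals that cover counting error only.

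The subcluster held 2891861 UMIs in WT and 3095132 UMIs in HET. The median depth was 8314 UMIs per WT nucleus and 8698 UMIs per HET nucleus, against 7679 and 8369 UMIs in the other neurons. Ribosomal protein transcripts made up a median of 0.553% of the UMIs of a WT member and 0.333% of a HET member, nearly as in the other neurons with 0.576% and 0.335%. The median doublet score was 0.197 in WT and 0.121 in HET members, against 0.167 and 0.134 in the other neurons. The libraries shared 23 nucleus barcodes, and 0 of these were in the subcluster. Of all nuclei of a library, the subcluster made up 3.22% in WT (2.87 to 3.60%, Clopper-Pearson) and 3.47% in HET (3.10 to 3.87%), intervals that overlapped. Of the nuclei of neuron.1 it made up 5.92% in WT (5.29 to 6.61%) and 7.67% in HET (6.87 to 8.53%), and these did not overlap. The denominator differed as well, since neuron.1 held 5032 WT and 4079 HET nuclei. Its subcluster 1 alone held 1714 WT and 511 HET nuclei. The share of neuron.1 by itself thus does not show that the subcluster was larger in HET.

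The neuronal name of the group matched its markers. *Rbfox3*, which encodes the neuronal nuclear protein NeuN, was detected in 72.8% of WT and 80.5% of HET members, and *Snap25*, a synaptic vesicle fusion protein, in 91.9% and 96.2%. When every nucleus was thinned to 1000 UMIs, the shares for *Snap25* were 37.6% and 43.5%, against 11.7% and 14.3% in oligodendrocytes, whose median depths were 2738 and 2852 UMIs. *Rbfox3* thinned to 17.1% and 21.3% of members, against 1.57% and 3.45% of oligodendrocytes. The other neurons gave 41.1% and 46.5% for *Snap25*, and 18.4% and 24.8% for *Rbfox3*. The members thus lay far above oligodendrocytes and slightly below the other neurons for these genes.

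*Gpc5* (ENSMUSG00000022112) gave 12973 UMIs in WT members and 14579 in HET members. The level was 4486 CPM (4409 to 4564) in WT and 4710 CPM (4634 to 4787) in HET, against 538 and 516 CPM in the other neurons. Both libraries thus showed the same large excess. The log2 ratio to the other neurons was 3.12 with both libraries together (3.10 to 3.15), an 8.72-fold difference, and it was 3.06 in WT and 3.19 in HET. Since the clustering used these counts, this excess and the other differences between members and the rest are a description of the group and no test.

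Every member held *Gpc5* transcripts. The lowest member had 3 UMIs, the median 34 and the highest 346. Per 10000 UMIs of a nucleus, the values ran from 4.12 through a median of 41.2 to 234, whereas the other neurons had a median of 0.722 and were at 0 up to the lower quartile. The spread within the group was similar in both libraries, with quartiles of 29.7 and 54.2 in WT and of 30.9 and 61.7 in HET. The members and the other neurons overlapped, since the 95th percentile of the other neurons was 24.9. In all, 237 of 10900 other neurons (2.17%) reached the median of the members, and 0 of 611 members were at or below the median of the other neurons. Of these 237 nuclei, 236 also belonged to neuron.1, among them 92 of the 747 nuclei of its subcluster 9 and 80 of the 119 nuclei of its subcluster 24.

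**Figure D1:**
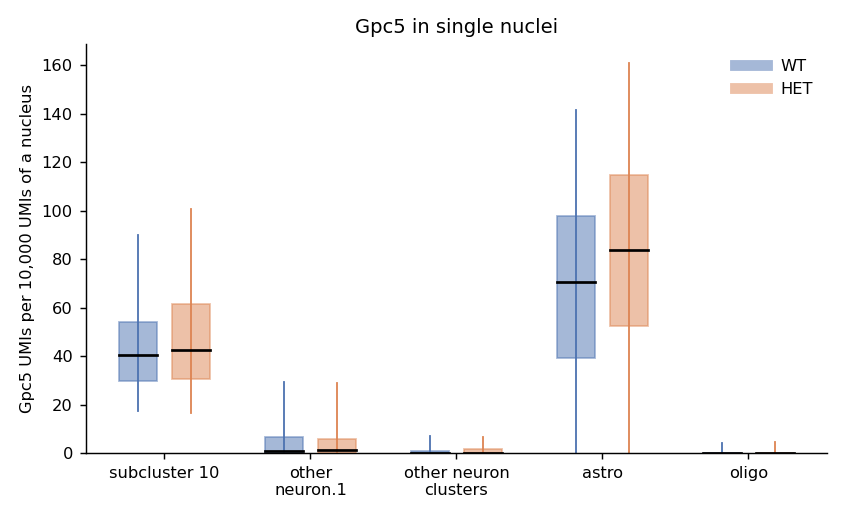
*Gpc5* UMIs per 10,000 UMIs of a nucleus (vertical axis) in WT (blue) and HET (orange) nuclei of 5 populations, with the median (black line), the quartiles (box) and the 5th to 95th percentile (thin line). Subcluster 10, with medians of 40.7 in WT and 42.5 in HET, lies far above the other neurons and below the astrocytes, whose medians are 70.9 and 84.0.

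Astrocytes had more *Gpc5* than the members. In the largest astrocyte subcluster *Gpc5* reached 9513 CPM, and the members had rank 4 among the 32 subclusters of the series with at least 50 nuclei. The astrocyte marker genes did not accompany *Gpc5* in the members. *Slc1a2*, the glutamate transporter of astrocytes, stood at 43.1 CPM in the members and at 3134 CPM in that astrocyte subcluster. There were 0.936 *Slc1a2* UMIs per 100 *Gpc5* UMIs in the members and 32.9 in the astrocytes. The 5 astrocyte markers together (*Slc1a2*, *Slc1a3*, *Aqp4*, *Gfap* and *Agt*) summed to 48.4 CPM in WT and 74.6 CPM in HET members, against 76.6 and 70.2 CPM in the other neurons, and none of the 5 was at 0. Oligodendrocytes, which carry little *Gpc5*, showed it at 94.5 and 104 CPM in WT and HET. The share of nuclei with a *Gpc5* UMI after thinning to 1000 UMIs was 5.31% and 8.32% there, 23.9% and 22.9% in the other neurons, and 95.7% and 96.4% in the members.

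The excess extended over the transcripts annotated within the *Gpc5* gene and was not shared to that extent by the neighbouring genes. *Gpc5* lies on chromosome 14 (GRCm38, 115092215 to 116525179, plus strand) and spans 1433 kb. The only other genes of the counts that lie within it are on the opposite strand. *Gm20713* (115788144 to 115871278), an annotated processed transcript, gave 3798 UMIs in WT and 5770 in HET, with a log2 ratio to the other neurons of 3.20 (3.16 to 3.24). *4930505G20Rik* (115396551 to 115409552), also a processed transcript, gave 130 and 230 UMIs, with a log2 ratio of 3.06 (2.87 to 3.24). All 3 transcripts were therefore raised by nearly the same factor. The methods do not state whether UMIs were assigned by strand, so reads of *Gpc5* and of these opposite-strand genes cannot be told apart with certainty.

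Of the 15 genes of the counts within 2 Mb on either side of *Gpc5*, 7 had at least 20 UMIs in the members. *Gpc6*, the glypican gene next to *Gpc5*, begins 1833 kb from the start of *Gpc5*. It gave 2571 UMIs in WT and 2946 in HET members, with a log2 ratio of 0.60 in WT and 0.38 in HET. Farther downstream, *Gpr180* had a log2 ratio of 0.09, *Tgds* of −0.04 and *Abcc4* of −0.45. No gene upstream had 20 UMIs. The microRNA host gene *Mir17hg*, which ends 45.5 kb before *Gpc5*, had 0 UMIs in the members.

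**Figure D2:**
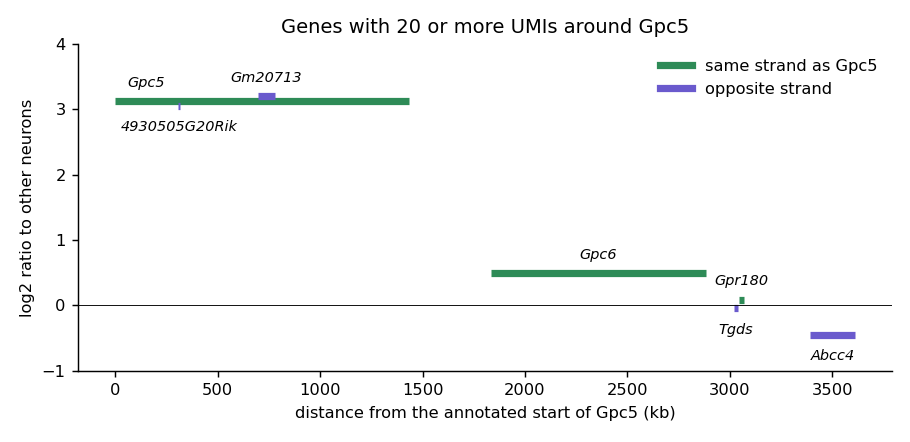
Log2 ratio of subcluster 10 to the other neurons (vertical axis, both libraries together) for the 7 genes with 20 or more UMIs, each drawn from its start to its end as distance from the start of *Gpc5* in kb (horizontal axis), coloured by strand. *Gpc5* and the transcripts within it sit between 3.06 and 3.20, while *Gpc6* sits at 0.49 and the genes beyond it at or below 0.09.

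*Gm20713* was counted at 29.3 UMIs per 100 *Gpc5* UMIs in WT members and 39.6 in HET members. The other neurons gave 27.9 and 38.9, and the astrocytes 25.7 and 37.4. The ratio was thus higher in HET than in WT in each of these populations. With both libraries together it ran from 15.2 to 44.4 over the 32 subclusters, and the members had 34.7. Across the members, the shares of *Gm20713* and *Gpc5* in the UMIs of a nucleus had a Pearson correlation of 0.47 in WT (n = 298 nuclei) and 0.64 in HET (n = 313 nuclei). These nuclei share a library, and both values are divided by the same total.

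The promoters of *Gpc5* and *4930505G20Rik*, from 250 bases before to 50 after the annotated start (RefSeq, GRCm38.p6), are shown here because these transcripts carry the identity of the group. The interval is chr14:115091965-115092264 on the plus strand for *Gpc5* and chr14:115409503-115409802 on the minus strand for *4930505G20Rik*. No promoter of *Gm20713* was used here. Capitals mark the GC box GGGCGG, the TATA box TATAAA, the CCAAT box and the E box CACGTG, on either strand.
Gpc5: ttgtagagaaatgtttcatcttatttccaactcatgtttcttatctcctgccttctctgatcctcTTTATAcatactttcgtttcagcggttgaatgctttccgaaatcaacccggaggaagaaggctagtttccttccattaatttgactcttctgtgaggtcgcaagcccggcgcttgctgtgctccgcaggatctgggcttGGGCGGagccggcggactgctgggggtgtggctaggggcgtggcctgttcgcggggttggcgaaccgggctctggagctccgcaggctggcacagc
4930505G20Rik: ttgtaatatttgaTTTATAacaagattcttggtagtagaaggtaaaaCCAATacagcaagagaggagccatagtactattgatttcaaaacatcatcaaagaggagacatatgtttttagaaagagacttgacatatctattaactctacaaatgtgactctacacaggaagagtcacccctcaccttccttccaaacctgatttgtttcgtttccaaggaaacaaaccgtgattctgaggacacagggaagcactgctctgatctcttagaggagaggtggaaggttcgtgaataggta

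The *Gpc5* window held 1 GC box on its own strand, which occurs on either strand in 35.7% of the 32851 promoters of this length, and 1 TATAAA on the opposite strand, a motif found in 13.6% of them. It held 17 CG dinucleotides. The *4930505G20Rik* window held 1 CCAAT, present in 37.4% of promoters, 1 TATAAA on the opposite strand, no GC box, and 3 CG dinucleotides. Neither window held CACGTG, which 7.15% of promoters hold. The searched motifs did not overlap each other in these windows. A match is a description of the letters and not of a factor bound there.

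Few genes differed by 2-fold from the other neurons in both libraries. Among 11111 genes with at least 50 UMIs observed or anticipated in the members, 7 (0.0630%) were at least 2-fold higher than in the other neurons in both libraries, and 43 (0.387%) were at least 2-fold lower in both. Besides the 3 transcripts of the locus, the higher genes were *Gm32828*, *Tgfbr2*, *Irgm1* and *Gm16618*, with between 54 and 183 UMIs each and log2 ratios from 1.12 to 1.62. These 4 genes were named after their values were seen. When each nucleus had the same weight, 3 genes passed this limit. No other gene that was higher in both libraries came near the ratios of the locus. Some of the lower genes lay as far from the other neurons, with few UMIs in the members. *Ano2*, a chloride channel gene, had 2 UMIs in WT and 1 in HET, against 1019 and 57 in the other neurons. Its log2 ratio was −4.33 with both libraries together, −4.71 in WT and −1.81 in HET. *Fam107b* had 5 and 12 UMIs (−3.37), and *Col27a1*, a collagen gene, 10 and 7 (−3.23). These 3 were also named after their values were seen.

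The other leading genes with at least 200 UMIs differed by less than the locus. *Nos1*, which encodes neuronal nitric oxide synthase, gave 61 UMIs in WT and 145 in HET members, with a log2 ratio to the other neurons of 0.67 in WT and 1.43 in HET. Of these UMIs, 10 of the 61 and 116 of the 145 came from 8 nuclei that are described at the end. *Ostm1*, needed for a lysosomal chloride transporter, gave 140 and 70 UMIs, with log2 ratios of 1.45 and 0.44. Each of the pair was thus uneven between the libraries. *Kcns3*, a modulatory potassium channel subunit, gave 132 and 146 UMIs, with log2 ratios of 0.65 and 1.21. *Trpc4*, a cation channel of the TRP family, gave 112 and 138 UMIs, with log2 ratios of 0.76 and 0.87. The remaining genes of the 15 with the largest ratios among genes with at least 200 UMIs were *4930509J09Rik* (0.93), *Gm20754* (0.68), and *St8sia4*, *Spata6*, *Tcerg1l*, *Bcl11b*, *Vwc2* and *Cdh11*, whose log2 ratios lay between 0.61 and 0.62. *Spata6* had 0.98 in WT and 0.13 in HET. *Bcl11b* encodes a transcription factor of neuronal differentiation and *Cdh11* a cadherin. The last gene inside this list, *Cdh11*, had a log2 ratio of 0.612 and the first outside, *Sdk1*, of 0.608.

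Several developmental transcription factors were low in the members. *Nfib*, a nuclear factor I gene, stood at 55.0 CPM in WT and 35.2 CPM in HET members, against 105 and 182 CPM in the other neurons (log2 ratio −1.66 with both libraries). *Ebf1*, an early B-cell factor gene used by several hindbrain lineages, stood at 205 and 122 CPM against 517 and 422 CPM (−1.54). Both were below the other neurons in each library. The lincRNA *Gm32647* (−1.59) and *Slit3*, an axon guidance ligand (−1.28), were also more than 2-fold lower. Against the other neuron.1 nuclei alone, the log2 ratio was −0.79 for *Nfib*, −0.93 for *Ebf1*, −0.50 for *Slit3* and −1.69 for *Gm32647*, so that of the 4 only *Gm32647* remained past 2-fold. *Il1rapl2* (−0.92), *Pdzd2* (−0.71), *Pitpnc1* (−0.67) and *Arpp21* (−0.66) completed the 8 lowest genes among those with at least 100 CPM in the other neurons. Of the 43 lineage transcription factors with at least 20 UMIs, 4 were more than 2-fold lower than in the other neurons in both libraries and 0 were more than 2-fold higher in both. *Maf* (−1.96) was among those 4. *Meis2* and *Pbx3*, homeobox genes, had log2 ratios of 0.56 and 0.34.

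**Figure D3:**
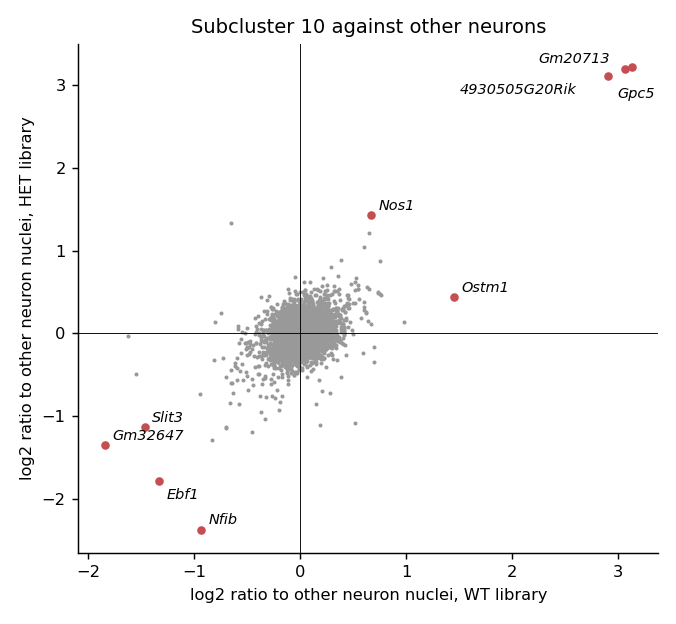
Log2 ratio of subcluster 10 to the other neurons in the WT library (horizontal axis) and the HET library (vertical axis), 1 point per gene with at least 200 UMIs in the subcluster and some genes of the text in red. *Gpc5*, *Gm20713* and *4930505G20Rik* lie alone near 3 on both axes, and *Nos1* and *Ostm1* show how far the libraries differed for weaker genes.

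No single transmitter marked the group. *Slc17a6*, the vesicular glutamate transporter VGLUT2, gave 239 UMIs in WT and 239 in HET members, at 82.6 and 77.2 CPM. *Gad2*, a GABA-synthesizing enzyme, gave 233 and 293 UMIs, and *Gad1* gave 94 and 108. *Slc6a5*, the glycine transporter of glycinergic neurons, gave 237 and 181 UMIs, and *Slc32a1*, the vesicular transporter for both GABA and glycine, gave 124 and 93. The log2 ratios to the other neurons of these 5 genes lay between −0.25 for *Slc6a5* and 0.39 for *Gad2*. By UMIs in single nuclei, 22.5% of WT and 21.7% of HET members held glutamatergic UMIs alone, 43.6% and 45.0% inhibitory UMIs alone, 19.5% and 16.9% both, and 14.4% and 16.3% neither. The other neurons, with both libraries together, gave 28.1%, 40.4%, 16.2% and 15.3% in the same order. By this limit of 1 UMI the members were thus a mixture of transmitter types in both libraries, much as the other neurons were. With 5 UMIs required, 2.29% of the 611 members were glutamatergic, 17.8% inhibitory and 79.9% neither. Among oligodendrocytes, where such UMIs are background and the depth is lower, 66.1% of WT and 68.2% of HET nuclei held neither at the limit of 1 UMI. After thinning to 1000 UMIs, *Gad2* was at 7.43% and 9.08% of members against 2.15% and 2.16% of oligodendrocytes, and *Slc17a6* at 7.82% and 7.56% against 4.53% and 4.33%. *Slc6a5* was at 6.92% and 5.08% against 2.56% and 1.80%, and *Gad1* at 3.77% and 3.66% against 1.20% and 0.873%. *Slc32a1*, at 4.79% and 3.63% against 3.83% and 2.58%, was close to this background, although 1 UMI of it counted as inhibitory.

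Monoamine markers were nearly absent. *Tph2*, the serotonin-synthesizing enzyme, gave 1 UMI in WT and 5 in HET members, *Th*, for catecholamines, 1 and 5, *Slc6a4* 1 and 0, *Dbh* 0 and 4, *Slc6a2* 1 and 0, and *Fev* and *Slc6a3* 0 in both. *Slc17a7*, the glutamate transporter VGLUT1, gave 2 and 12 UMIs, and *Slc17a8*, VGLUT3, gave 8 and 14. *Slc18a2*, the vesicular monoamine transporter, gave 48 and 78 UMIs and was below the other neurons (log2 ratio −0.53). The 3 motor neuron markers together gave 4 UMIs in WT and 7 in HET, the 4 noradrenergic markers 13 and 9, the 4 cortical excitatory markers 21 and 21, and the 3 granule cell markers 12 and 24. Of the Purkinje cell markers, *Calb1*, a calcium buffer, was lower than in the other neurons (log2 ratio −1.76), and *Itpr1* was at 51.2 CPM in WT and 51.1 in HET against 72.9 CPM in the other neurons.

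The finer deposited clustering divided this mixture. At the resolution of 1.5, 517 members (238 WT and 279 HET) fell into group 14 and 80 members (51 WT and 29 HET) into group 40, with 11, 2 and 1 in other groups. *Gpc5* was high in each of the larger groups, at 4868 CPM in group 14 and 3049 CPM in group 40. Their transmitter genes were opposite. *Slc17a6* stood at 67.9 CPM in group 14 and 169 CPM in group 40, whereas *Gad2* stood at 101 and 15.6 CPM, *Gad1* at 38.6 and 3.90 CPM, and *Slc6a5* at 74.4 and 11.7 CPM. The glutamatergic gene was thus higher in the smaller group and these 3 inhibitory genes were higher in the larger group. The log2 ratio of group 40 over group 14 for *Gad2* was −2.90 in WT and −2.33 in HET. For *Slc6a5* it was −5.62 and −0.86. *Slc32a1* had −2.72 in WT but −0.11 in HET, with 4 and 7 UMIs in group 40, so HET showed almost no difference for it. A *Gad2* level of 15.6 CPM is below that of oligodendrocytes, which had 19.8 CPM in WT and 21.0 in HET.

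Of 5095 genes with at least 200 UMIs in the 2 groups together, 55 were at least 2-fold higher in group 40 in both libraries and 105 at least 2-fold lower. Group 40 was higher in *Rorb* and *Rora*, nuclear receptors of the ROR family (log2 differences 2.28 and 1.72), in *Kcnh8*, a potassium channel (2.43), in *Tafa1*, a secreted neuronal peptide (2.22), and in *Kcnip4*, a potassium channel-interacting protein (1.99). It was lower in *Grik1*, a kainate receptor subunit (−4.53), in *Pde1a*, a phosphodiesterase (−4.52), in *Erbb4*, the neuregulin receptor (−3.41), and in *Pax2*, a transcription factor of inhibitory hindbrain neurons (−3.32). *Mecom*, a zinc finger transcription factor, gave 0 UMIs in group 40 and 223 in group 14. These genes were chosen after their values were seen, from the ends of the ranking, and the groups were made from the same counts.

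The nearest populations were other subclusters of neuron.1. Over 15352 genes, with log2(CPM + 10), the profile of the members had a Pearson correlation of 0.994 with subcluster 3 (1498 nuclei) and of 0.993 with subcluster 5 (934 nuclei), a description over genes that are not independent. Against subcluster 3, only 8 of 5220 genes were at least 2-fold higher in the members and 4 at least 2-fold lower, among the latter *Il1rapl2* (−2.12) and *Adarb2*, an RNA-editing enzyme family member (−1.53). Against subcluster 5, 10 were higher and 1 lower, and the lower gene was *Gm32647* at 225 CPM in the members and 3716 CPM in subcluster 5 (−4.05). The *Gpc5* log2 ratio was 3.13 to subcluster 3 and 2.61 to subcluster 5. A much smaller subcluster of neuron.1, number 24 with 119 nuclei, had still more *Gpc5* (5304 CPM) but had a correlation of 0.952, and 292 of 5220 genes were at least 2-fold higher and 98 at least 2-fold lower in the members than there. *Reln*, a secreted matrix protein, was at 76.5 CPM in the members and at 0.778 CPM there.

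For the genotypes, *Scn1a* itself is given first. It lies on chromosome 2 (66270778 to 66440840, minus strand) and gave 1306 UMIs in WT and 1507 in HET members, at 452 and 487 CPM. The log2 ratio of HET over WT was 0.11 (0.00 to 0.22), against 0.20 in the other neurons. The knock-in changes a codon and removes no exon, so UMI counts do not check the genotype label. *Scn1a* was not enriched in the members, with a log2 ratio to the other neurons of 0.03. Of the 9 sodium channel subunits, 0 differed by 2-fold between HET and WT in either direction, and the median log2 ratio was 0.09 (−0.02 in the other neurons). Over the 13600 genes with at least 20 UMIs in the members, 3.27% were at least 2-fold higher in HET, 4.92% at least 2-fold lower, and the median was −0.10. Of these, *Scn9a* (NaV1.7) had 0.36 with 1435 and 1967 UMIs, *Scn2a* 0.09 and *Scn8a* −0.08.

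*Gpc5* differed little in level by genotype. It had a log2 ratio of HET over WT of 0.07 (0.04 to 0.10) in the members and of −0.06 in the other neurons. *Gm20713* was higher in HET in both, with 0.51 in the members and 0.42 in the other neurons, as was *4930505G20Rik*, with 0.73 and 0.52. *Ostm1* was lower in HET members (−1.10) but not by that much in HET other neurons (−0.08). Among the 15 leading genes, *Spata6* was likewise lower in HET members (−1.01), and *4930509J09Rik* (1.12) and *Nos1* (1.15) were higher. In subcluster 3, *Ostm1* gave 128 WT and 130 HET UMIs.

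Of 10787 genes with at least 50 UMIs in the members, 168 (1.56%) were at least 2-fold higher in HET and 296 (2.74%) at least 2-fold lower. The genes described next are the 12 lowest and 12 highest among those with at least 200 UMIs. The lowest was *Ttr*, the thyroid hormone carrier of the choroid plexus, with 681 UMIs in WT and 79 in HET members, a log2 ratio of −3.21 (−3.56 to −2.87). In the other neurons the ratio was −3.02, and the choroid plexus markers together, *Ttr* included, summed to 238 CPM in WT and 25.8 CPM in HET members against 238 and 30.9 CPM in the other neurons. *Ttr*, a choroid plexus transcript, thus differed between the libraries in the members nearly as it did in the other neurons. The choroid plexus cluster epend.2 held 108 WT and 6 HET nuclei in its subcluster 25. Whether this bore on *Ttr* in the members was not tested, nor was the part of *Ttr* in other differences.

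Ribosomal protein and respiratory chain genes and several non-coding RNAs made up most of the other 11 of the 12 lowest genes. *Bc1*, a small non-coding RNA of neuronal dendrites, gave 6137 UMIs in WT and 1495 in HET members (log2 ratio −2.14, other neurons −2.11). *Mettl18*, a histidine methyltransferase, gave 175 and 46 UMIs (−2.03, other neurons −2.24). The predicted genes *Gm36264* and *Gm49179* had −2.21 and −1.79. *Ndufb8* and *Ndufa13*, subunits of respiratory complex I, had log2 ratios of −1.46 and −1.34, and *Cox6a1*, of complex IV, −1.28. The ribosomal protein genes *Rps13*, *Rpl35a* and *Rpl28* had −1.33, −1.30 and −1.29, and *Gm27032* had −1.30. All 12 were also lower in HET in the other neurons, by log2 ratios between −3.02 and −0.85. The last of the 12, *Cox6a1*, was followed outside the list by *Rps16* at −1.27.

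The highest genes in HET members, among those with at least 200 UMIs, were nearly all non-coding transcripts that overlap a protein-coding gene on the other strand. Of the 12 with the largest ratios, 11 were annotated as non-coding and all 12 overlapped such a gene. Over all genes with at least 200 UMIs, 7.35% were non-coding and 24.5% had a coding gene on the opposite strand. Of the 380 non-coding genes among these, however, 276 (72.6%) had one, so such overlap is common for non-coding genes. *Gm20149*, opposite *Ahi1*, gave 48 UMIs in WT and 198 in HET members (log2 ratio 1.95, 1.49 to 2.43), and 1.47 in the other neurons. *Grip1os1*, opposite the receptor-anchoring gene *Grip1*, gave 42 and 172 UMIs (1.94), and 1.32 in the other neurons. *5530401A14Rik*, opposite *Asic2*, the 1 gene of the 12 annotated as coding, gave 252 and 910 UMIs (1.75), and 1.55 in the other neurons. The others were *Gm47027* (1.61), *Gm42609* (1.60), *Gm48006* (1.53), *Gm13187* (1.49), *Csmd2os* (1.48), *Gm36146* (1.47), *Gm47661* (1.31), *Gm49191* (1.27) and *A330093E20Rik* (1.26). As for *Gm20713*, reads of either strand cannot be told apart with certainty here.

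**Figure D4:**
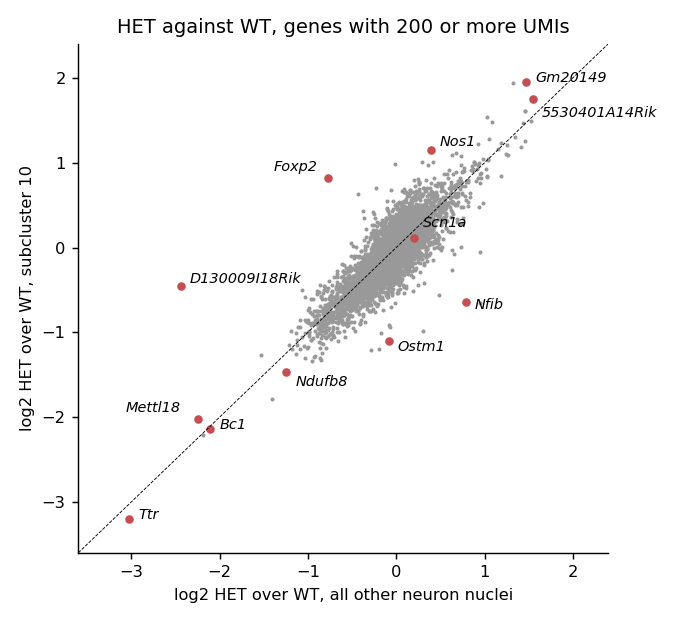
Log2 ratio of HET over WT in subcluster 10 (vertical axis) and in all other neuron nuclei of the same libraries (horizontal axis), 1 point per gene with at least 200 UMIs in the subcluster and some genes of the text in red; the dashed line marks equal ratios. *Ttr*, *Bc1*, *Mettl18*, *Ndufb8*, *Gm20149* and *5530401A14Rik* lie near the line, and *Foxp2*, *Nfib*, *Ostm1* and *D130009I18Rik* lie away from it.

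The gene lists, taken over genes with at least 20 UMIs, are given next. Of the 5 neuron markers, 0 passed 2-fold, with a median of −0.08 (0.20 in the other neurons). Of 82 ribosomal protein genes, 20 were at least 2-fold lower, 0 were 2-fold higher, and the median was −0.81 (−0.86 in the other neurons). Of 77 genes of oxidative phosphorylation, 8 were at least 2-fold lower, 0 higher, and the median was −0.66 (−0.61). Among the members of these lists with the most UMIs past the limit were *Rplp1*, with 304 and 142 UMIs (−1.20), and *Rpl24*, with 284 and 149 (−1.03), as well as *Ndufb5*, with 187 and 100. The ribosomal and respiratory genes were thus lower in HET members by nearly the amount seen in the other neurons.

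The Hox genes, which give hindbrain and spinal cord cells their position along the body axis, had the lowest median of the lists with at least 3 measured genes. Of 11 with at least 20 UMIs, 6 were at least 2-fold lower in HET, the other 5 were lower by less, and the median was −1.05 (−1.10 in the other neurons). *Hoxb4* gave 54 UMIs in WT and 28 in HET members (−1.05), *Hoxb6* 49 and 17 (−1.63), *Hoxb2* 45 and 20 (−1.27), and *Hoxd4* 43 and 15 (−1.62). *Hoxb3*, with the most UMIs of the list, gave 118 and 66 (−0.94). In the members, Hox genes as a list were slightly above the other neurons, with a median log2 ratio of 0.28 against 0.01 over all genes with at least 20 UMIs.

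Other lists of cell maintenance were lower in HET by smaller amounts. The median was −0.35 for 25 heat shock and ubiquitin genes, −0.32 for 25 translation factors, −0.30 for 22 genes of the TCA cycle and −0.22 for 16 glycolytic genes. Within the limit of 2-fold, *Hsp90ab1* and *Dnaja2*, chaperone genes, had −0.60 and −0.82, *Eif1* −0.81 and *Eif4g3* −0.15, and *Ogdh*, of the TCA cycle, −0.15. In glycolysis, *Tpi1* alone passed it, with 118 and 54 UMIs (−1.23). Of 12 immediate early genes, which respond to neuronal activity, 3 were at least 2-fold lower, with a median of −0.55 (−0.73 in the other neurons): *Junb* with 43 and 18 UMIs, *Egr1* with 27 and 14, and *Fos* with 15 and 6. Of 9 neuropeptide genes, 3 were at least 2-fold lower, with a median of −0.60. These were *Cck* with 42 and 18 UMIs, *Cartpt* with 29 and 15, and *Npy* with 30 and 7. The opioid peptide gene *Penk*, with 128 UMIs in each library, was the most abundant of that list.

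The genes of excitability and synaptic signalling lay near equality. Of 11 GABA-A receptor subunits, 10 were higher in HET and 0 by 2-fold, with a median of 0.30 (0.15 in the other neurons). *Gabrg3* gave 1633 UMIs in WT and 2035 in HET (0.22). The medians were 0.20 for 6 glycine receptor genes, 0.13 for 35 potassium channel genes, 0.11 for 23 glutamate receptor genes, 0.06 for 17 calcium channel genes and −0.01 for 10 pacemaker and TRP channel genes. *Kcnip4* (−0.11), *Kcnd2* (0.14), *Gria4* (0.20), *Cacna1a* (−0.31) and *Cacna1d* (−0.48) were among the most abundant genes of the potassium channel, glutamate receptor and calcium channel lists. In these 6 lists, 2 genes passed 2-fold: *Glra4*, with 6 and 27 UMIs (2.07), and *Trpc6*, with 69 and 149 (1.01). The medians were 0.08 for 34 synaptic vesicle genes and 0.03 for 8 genes of GABA and glycine release, where *Syt1*, *Rims2* and *Abat* had −0.08, 0.12 and 0.24.

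Few genes passed the limit in the remaining lists. Of 38 receptors for modulators, *Chrna4*, *Calcrl* and *Htr5a* were at least 2-fold higher in HET and *Adra2c* at least 2-fold lower, with between 25 and 51 UMIs each, and the median was 0.05. Of 43 lineage transcription factors, *Pax5* (11 and 50 UMIs) and *Ebf2* (54 and 127) were at least 2-fold higher, *Shox2* (15 and 6) was 2-fold lower, and the median was −0.10. Of 8 calcium-binding and nitric oxide genes, *Nos1* was higher and *Sncg* lower, with a median of −0.29. The 65 adhesion and guidance genes (median 0.13; *Cntnap2* 0.26, *Pcdh9* 0.34), the 10 neurofilament and perineuronal net genes (median −0.10; *Tnr* 0.34, *Nefm* −0.02), 18 imprinted genes (median 0.01) and 20 circadian genes (median −0.02) held 4 genes past the limit. They were *Peg10*, *Nr1d1* and *Dbp*, which were higher, and *Ciart*, which was lower, each with under 40 UMIs.

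Markers of other cell types were present in the members. The 5 oligodendrocyte markers summed to 507 CPM in WT and 587 CPM in HET members (other neurons 494 and 629), and *Mobp*, with 55 and 136 UMIs, was higher in HET members (log2 ratio 1.21) and in the other neurons (1.18). The 5 microglial markers summed to 176 and 216 CPM (other neurons 179 and 202), and *C1qa*, with 52 and 15 UMIs, was lower in HET (−1.89, other neurons −1.61). The endothelial markers summed to 21.1 and 9.37 CPM, the fibroblast and mural markers to 14.9 and 5.17, the ependymal markers to 11.8 and 4.52, and the markers of oligodendrocyte precursors to 6.92 and 4.20. None of these markers was at 0 UMIs in both libraries, and *Rgs5*, a mural cell gene, gave 14 UMIs in WT and 0 in HET. Their part in the genotype differences was not tested.

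Some genes departed from the other neurons in their genotype difference. By the difference of the log2 ratios, among genes with at least 200 UMIs in both sets, *D130009I18Rik* (members −0.46, other neurons −2.44), *Foxp2*, a forkhead transcription factor (0.82 and −0.77), *Arhgap6* (0.63 and −0.43), *Slc1a2* (0.70 and −0.23) and *Rangap1* (0.43 and −0.38) were relatively higher in HET members. *Adamts2* (−0.65 and 0.95), *Nfib* (−0.64 and 0.79), *Pde1c* (−0.98 and 0.31), *Megf11* (−0.56 and 0.48), *Ostm1* (−1.10 and −0.08) and *Mecom* (−1.20 and −0.20) were relatively lower. The other neurons differed in make-up between the libraries, since subcluster 1 of neuron.1 alone held 1714 WT and 511 HET nuclei. Within subcluster 3, the population most like the members, the ratio was 1.15 for *Foxp2*, 0.73 for *D130009I18Rik*, 0.04 for *Nfib*, −0.14 for *Pde1c* and −0.21 for *Mecom*. The size and even the direction of these departures thus depended on the neurons set beside the members. The members too differed in make-up, since the finer group 40 held 51 WT and 29 HET nuclei. *Megf11* gave 125 WT and 44 HET UMIs there and 109 and 129 in group 14. *D130009I18Rik* gave 94 and 49 against 72 and 80. *Mecom*, in contrast, gave 0 UMIs in group 40 and 152 and 71 in group 14. The part of this mixture in the departures was not tested.

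Of the 3 cholinergic markers, *Chat* and *Slc5a7* were higher in HET members and lower in the other HET neurons. The third, *Slc18a3*, the vesicular acetylcholine transporter, gave 4 UMIs in WT and 3 in HET members, a log2 ratio of −0.51 (−3.28 to 2.05). *Chat*, the acetylcholine-synthesizing enzyme (chromosome 14, 32408203 to 32465989, minus strand), gave 13 UMIs in WT and 58 in HET members, a log2 ratio of 2.06 (1.17 to 3.05). *Slc5a7*, the choline transporter (chromosome 17, 54273590 to 54299034, minus strand), gave 13 and 81 UMIs, with 2.54 (1.69 to 3.51). In the other neurons they were at −0.43 and −0.68, and in the other neuron.1 nuclei alone at 0.34 and 0.01. Subcluster 31 of neuron.8, with 44 WT and 9 HET nuclei, held 33 of the 45 WT and 8 of the 25 HET other neurons with 3 or more *Chat* UMIs. *Nos1* also was higher in HET members (61 and 145 UMIs, 1.15) and less so in the other neurons (0.39).

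These UMIs came from a handful of nuclei. In all, 1 WT and 7 HET members held 3 or more *Chat* UMIs, a limit set after the values were seen. The 7 HET nuclei held 50 of the 58 *Chat* UMIs, 68 of the 81 *Slc5a7* UMIs and 116 of the 145 *Nos1* UMIs of HET members. The WT nucleus held 9 of 13, 0 of 13 and 10 of 61. All 8 also held at least 5 *Nos1* UMIs, the highest 31, all 8 were in the finer group 14, and their *Gpc5* counts ran from 60 to 191. These 8 nuclei were deep, with 11670 to 23886 UMIs, against a median of 8574 UMIs over all members. Whether any of them was a doublet was not tested. The members thus included a few nuclei with counts of *Chat*, *Nos1* and *Gpc5* together. Among the 10900 other neurons, 70 held 3 or more *Chat* UMIs, and 6 of these held 3 or more of *Nos1* as well. Without the 8 nuclei, *Slc5a7* had a log2 ratio of −0.05 (−1.28 to 1.18) with 13 UMIs in each library, *Nos1* had −0.86 (−1.58 to −0.18) with 51 and 29 UMIs, and *Chat* had 4 and 8 UMIs.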

How the data were processed

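Single-nucleus RNA was measured in the brainstem of 1 WT and 1 HET mouse. According to the methods, the authors aligned droplet libraries with Cell Ranger (version not stated) to mm10, and filtered and clustered nuclei with Seurat 4.1, keeping nuclei with at least 1000 genes and at most 15% mitochondrial UMIs. The methods state that mitochondrial, hemoglobin and listed bias-producing genes were filtered out. The deposited counts held no mitochondrial genes but did hold listed ones such as *Rpl35a*. All deposited nuclei were classed as singlets, and no doublets were called here. The deposited matrix held raw UMI counts of 25556 genes in 18281 nuclei. The deposited table of nuclei gave counts of UMIs and genes, percent of ribosomal and mitochondrial UMIs, a doublet score given as a fraction from 0 to 1 (caller not named), cluster numbers and names, and reference labels. Whether counting used strand is not given in the sources used here.

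Counts were summed per library over the nuclei of a group and divided by all UMIs of those nuclei. With 1 library per genotype, no test was made. Intervals for levels are exact Poisson, for ratios exact conditional binomial and for shares Clopper-Pearson, at 95%, and they cover counting error only. Shares of nuclei with a UMI were also computed after thinning every nucleus to 1000 UMIs. Gene counts past 2-fold used a minimum of 50 UMIs and gene lists a minimum of 20. The code was tested on simulated data. Positions came from GENCODE vM21 on GRCm38, matched by symbol for 24921 genes, and promoters from RefSeq on GRCm38.p6. The code ran in Python 3.11.15 with pandas 2.3.3, scipy 1.17.1, numpy 2.4.6 and matplotlib 3.10.9.

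The members and the 45 gene lists (20 of cell type or transmitter markers) were chosen with earlier results of these data known. Named genes were *Scn1a*, the markers, the 15 highest (at least 200 UMIs) and 8 lowest (at least 100 CPM in the others) genes against the other neurons, the 12 highest and 12 lowest of HET over WT (at least 200 UMIs), the members of each list past the fold with the most UMIs (up to 4) or otherwise its 2 most abundant, and the 6 with the largest difference from the other neurons in each direction. Genes named outside this rule were the *Gpc5* neighbours, the most abundant or illustrative members of some lists (*Scn2a*, *Scn8a*, *Meis2*, *Pbx3*, *Maf*, *Hoxb3*, *Penk*), and the genes of the nearest and finer groups. These were chosen after their values were seen. Some genes that the rule names are not reported here. Alternatives changed the scaling, the nuclei used, the weight of nuclei and the UMI minimum.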

Additional observations from a re-analysis of the deposited data

Results flagged for a closer look

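Among the 142 named genes, 3 differed at least 2-fold between HET and WT members and went the other way in the other neurons. For these 3 genes, both counting intervals excluded 0. Genes below 2-fold in the members, such as *Foxp2* and *Nfib*, also had opposite signs and are given above. *Chat* had a log2 ratio of HET over WT of 2.06 in the members and -0.43 in the other neurons. *Slc5a7* had 2.54 in the members and -0.68 in the other neurons. Against the other neuron.1 nuclei alone, *Chat* had 0.34 and *Slc5a7* 0.01, so the opposite sign in all other neurons was not seen there. *Chrna4*, a nicotinic acetylcholine receptor subunit with 16 UMIs in WT and 35 in HET members, had 1.03 in the members and -0.24 in the other neurons, in neuron.1 alone as well. With 1 library per genotype, the difference between members and other neurons was not tested for any of the 3 genes. Most of the *Chat* and *Slc5a7* UMIs of HET members came from 7 nuclei.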

How the results depend on the processing

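No paired analysis was possible because each genotype has 1 library, and for the same reason no library could be left out. The HET share of the subcluster over its WT share had a log2 ratio of 0.11 among all nuclei and of 0.37 among the nuclei of neuron.1. Against the other nuclei of neuron.1 alone, the log2 ratio of *Gpc5* was 2.86 and 19 genes rather than 43 were at least 2-fold lower. With equal weight for each nucleus, the *Gpc5* ratio was 3.18, 3 genes rather than 7 were at least 2-fold higher, and the medians of HET over WT were -0.73 for oxidative phosphorylation and -0.88 for ribosomal proteins. Within the finer group 14, the *Gpc5* ratio was 3.21 and the ribosomal median -0.87. Without the 5% highest doublet scores the ribosomal median was -0.77. A minimum of 100 UMIs gave medians of -0.82 for the Hox genes and -0.71 for oxidative phosphorylation. At a minimum of 200 UMIs, 30 genes were at least 2-fold higher in HET and 60 lower, and at 20 UMIs 445 and 669. Without the nuclei with 3 or more *Chat* UMIs, *Slc5a7* was at -0.050 and *Nos1* at -0.86. The cause of these shifts was not tested. Under the other settings between 144 and 190 genes were higher and between 261 and 410 lower. The settings on group 14 and on *Chat* were chosen after seeing the data.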

Other observations

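*Gpc5* was also high in a pair of other neuron groups. Subcluster 24 of neuron.1 (73 WT and 46 HET nuclei) had 5304 CPM of *Gpc5*, and 80 of its 119 nuclei reached the median of the members. It had more *Nfib* than the members, at 437 against 44.8 CPM, and more *Grik1*, at 1533 against 285 CPM. Subcluster 18, which carries a microglial cluster name, had 4446 CPM of *Gpc5*, and all its 185 nuclei had the reference label of neurons. Its *Rbfox3* level was 429 CPM, and the microglial gene *Cx3cr1* stood at 19.7 CPM there, against 696 and 329 CPM in subclusters 20 and 28 with that cluster name. Against this group, *Kcns3* was at 46.4 CPM in the members and 0.658 CPM in the group, and *Ebf1* at 163 CPM in the members and 2009 CPM in the group.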
